A study of Mus musculus with 10 samples.

Results

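The genes described here are 49 genes of mitosis, followed across the 4 groups of a study of irradiated mouse embryonic fibroblasts (MEFs). They were chosen by name, as mitotic cyclins, kinases, kinesins, kinetochore proteins, cytokinesis factors and chromosome proteins, and each was read by the probeset with the highest mean signal among those that pair with that symbol alone. Of the 49 genes, 48 had such a probeset, out of 19938 genes with one on the array and 35557 probesets in all. Ccnb1, the gene of cyclin B1, was not analysed here. All MEFs were wild type, were irradiated, and were harvested on day 9 of culture. The groups were MEFs + ALL + nilotinib (3 arrays), MEFs + ALL + DMSO (1 array), MEFs + nilotinib (3 arrays) and MEFs + DMSO (3 arrays). The ALL cells are the 8093 line of murine precursor B lymphoblasts with a Bcr/Abl transgene, and they were kept apart from the MEFs by a Transwell membrane, whose pores let soluble factors through. The drug nilotinib, an inhibitor of Abl, was used at 16 nM in DMSO as the solvent. The triplicates were separate dishes, so p-values measure the spread between dishes. The methods state that ALL cells had entered the other dishes of MEFs + ALL + DMSO and that for this reason a single one was used, so this group is 1 array, whose spread was assumed to be like that of the other groups.

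Mitosis is the stage in which a cell condenses its duplicated chromosomes, attaches them to a spindle of microtubules and pulls the copies apart before it divides. Cdk1 bound to A and B cyclins drives entry into it, and the anaphase-promoting complex ends it by marking cyclins and securin for destruction. The mRNAs of most of these proteins are made mainly in the G2 phase and in mitosis itself. In cells that have left the cycle the DREAM complex represses their genes through an element near the start site, the cell cycle genes homology region (CHR). Irradiated fibroblasts serve as a feeder layer because they stay alive without dividing.

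Values are RMA-normalized signals on the log2 scale, so a difference of 1 is a 2-fold change of the signal. Differences were tested with limma on all 10 arrays, and a gene counts as called, higher or lower, if its p is under 0.05 after Benjamini-Hochberg adjustment over all 35557 probesets. Levels of different genes are not compared, since each probeset has its own brightness. In bulk RNA, fewer cells of a type and less RNA per cell cannot be told apart. Array medians ran from 6.94 to 7.01. Fibroblast markers such as Col1a1, Vim and Dcn averaged 12.1 on the MEFs + ALL + DMSO array and 12.2 to 12.3 on the 9 others, so they were bright on every array. Such a mean does not show whether other cells were present. On the MEFs + ALL + DMSO array the markers differed from MEFs + DMSO by -0.72 (Col1a1) to 0.65 (Lum). Only Lum and Thy1 (0.59) had a positive difference. Col1a2 differed by -0.66, Col3a1 by -0.38, Fn1 by -0.22, Postn by -0.18, Pdgfrb by -0.18, Dcn by -0.15 and Vim by -0.03. The median over all probesets was -0.07 in the same comparison. Of the 10 fibroblast markers, Thy1 and Lum were called higher and Col1a2 lower on the MEFs + ALL + DMSO array than in MEFs + DMSO, and of the list only Thy1 passed, as higher, in MEFs + ALL + nilotinib over MEFs + DMSO.

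The MEFs + ALL + DMSO array stood apart and also carried transcripts of blood cells, which bears on every result that uses it. The mean of 13 B lineage markers was 8.23 on this array and 6.11 to 6.36 on the 9 others, and 11 of the 13 were called higher than in MEFs + DMSO. Igll1, which encodes a part of the pre-B cell receptor, had a signal of 11.08 there and at most 6.99 on any other array. Rag2 and Blnk, the remaining 2 B lineage markers, were not called. All 8 leukocyte markers were called higher, with a mean of 10.0 on this array and 7.67 to 7.90 elsewhere. Of the 6 macrophage markers 0 were called, with a mean of 8.79 there and 8.68 to 8.94 on the other arrays. Pecam1, from the endothelial list, and Epcam, from the epithelial list, were called higher, while the other endothelial markers Cdh5, Kdr and Tek were not called and the epithelial keratin gene Krt8 was called lower. For comparison, 6.67% of all probesets were called higher on the MEFs + ALL + DMSO array than in MEFs + DMSO. On the 9 other arrays, B lineage and leukocyte means lay within the ranges above in every group. Among the groups of 3, limma called 0 of these 21 markers in each comparison. Of all probesets it called 0.627% in MEFs + ALL + nilotinib over MEFs + DMSO, 0% in MEFs + nilotinib over MEFs + DMSO and 0.186% in MEFs + ALL + nilotinib over MEFs + nilotinib. With so few calls, 0 does not set these markers apart.

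Among the groups of 3 arrays, the signals of mitotic genes lay close together. The mean signal of the 48 genes was 6.77, 6.67 and 6.70 in MEFs + ALL + nilotinib, 6.67, 6.70 and 6.67 in MEFs + nilotinib, and 6.65, 6.62 and 6.55 in MEFs + DMSO. Group means were 6.71 ± 0.05, 6.68 ± 0.02 and 6.61 ± 0.05 (SD, n = 3 each) in the same order, and the MEFs + ALL + DMSO array had a mean of 8.81. As a guide to background, the signal of each gene was set against the 95th percentile of olfactory and vomeronasal receptor probesets, genes of sensory neurons. Between 12 and 19 of the 48 genes lay under that level on each of the 9 arrays, and 0 did on the MEFs + ALL + DMSO array. On all 3 MEFs + DMSO arrays, where the guide was 6.33 to 6.42, 16 genes lay under it: Cdc25c, Bub1, Bub1b, Ttk, Cenpe, Cenpf, Ndc80, Nuf2, Kif11, Kif15, Kif2c, Kif4, Hmmr, Nusap1, Aspm and Ncapg. A difference over MEFs + DMSO is only a bound for these dim genes, and it is given as at least the MEFs + ALL + DMSO signal minus the mean guide level of the MEFs + DMSO arrays. Limma's calls and p-values for dim genes are those of the measured signals, not of the bound. Cdca8 and Mki67 lay under the guide on 2 of the 3 MEFs + DMSO arrays, and Kif23 and Prc1 on 1. Their differences are given as measured, although part of the reference signal was under the guide. For a single gene the 9 arrays spanned 0.13 to 0.85, with a median span of 0.40.

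**Figure D1:**
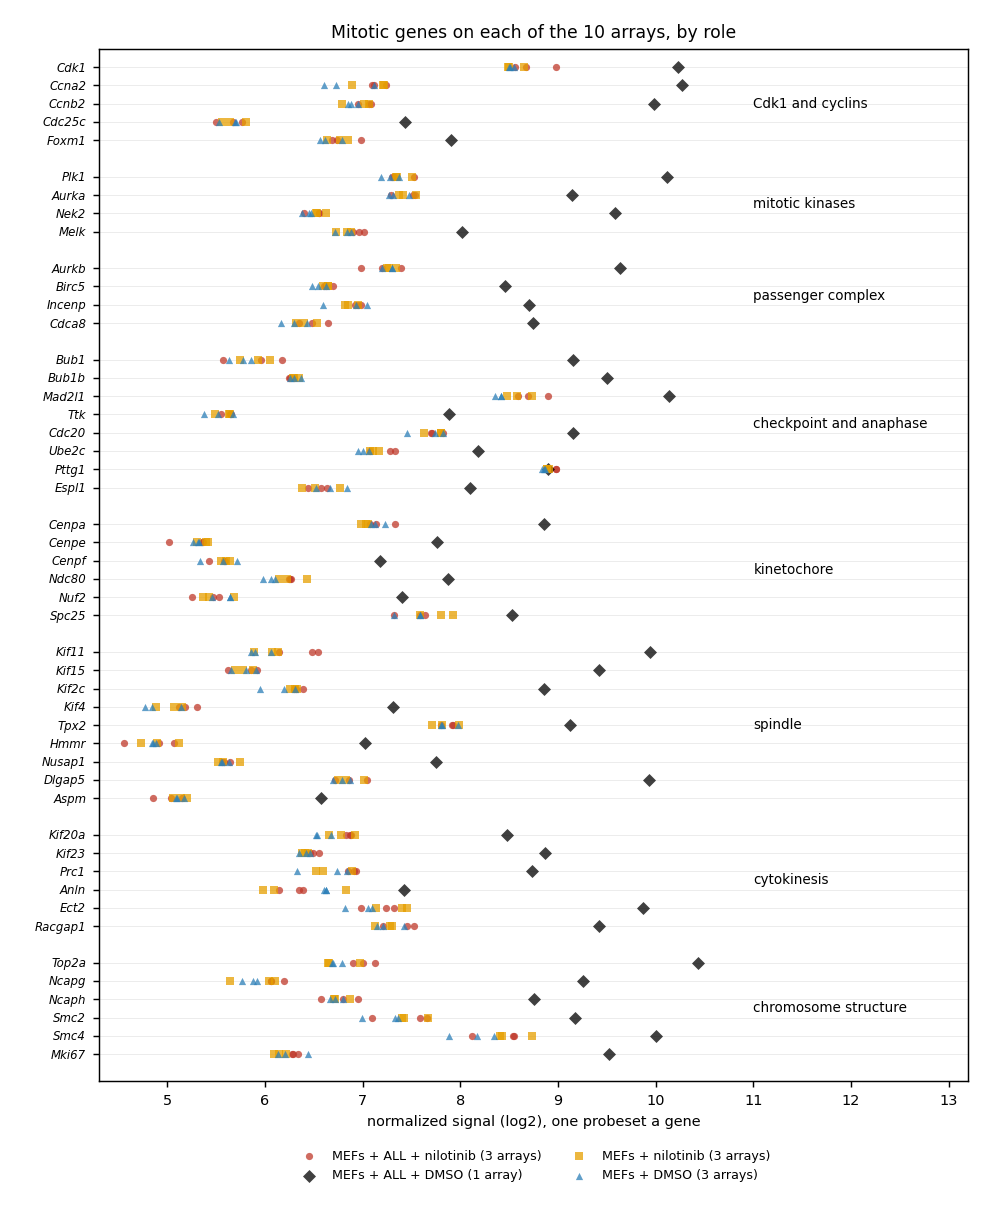
Normalized signal (log2, x axis) of each of the 48 mitotic genes (rows, grouped by role) on each of the 10 arrays. Black diamonds are the MEFs + ALL + DMSO array, which lies above the 9 other arrays for 47 of the 48 genes, all but Pttg1.

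With ALL cells and nilotinib, no mitotic gene was called against MEFs + DMSO. Limma called 0 of 48, where 0.627% of all probesets were called in either direction, and the smallest adjusted p was 0.137, for the spindle kinesin Kif11. At an unadjusted p under 0.05 there were 8 genes or 16.7%, beside 16.2% of all probesets, so the genes were near the background. All 8 were higher in MEFs + ALL + nilotinib. The median log2 difference of the 48 genes was 0.10, beside -0.0042 over all probesets, and 39 of the 48 differences were positive. In 12 genes or 25% the 3 arrays of MEFs + ALL + nilotinib lay above the 3 of MEFs + DMSO without overlap, beside 14.1% of all probesets, and in 1 gene or 2.08%, Anln, they lay below, beside 10.6%. The upper ends of the 95% intervals reached at most 0.72, again for Kif11. Array 1 of MEFs + ALL + nilotinib was the highest of the 9 arrays for 15 genes, and array 3 of MEFs + DMSO the lowest for 17. On arrays 1, 2 and 3 of MEFs + ALL + nilotinib the B lineage mean was 6.12, 6.34 and 6.18, the leukocyte mean 7.83, 7.81 and 7.79, and the macrophage mean 8.94, 8.72 and 8.86. Array 1 thus had the lowest B lineage and the highest leukocyte and macrophage means of its group, and the part of other cells in these differences was not tested.

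With nilotinib alone, no mitotic gene was called either. Limma called 0 of 48 in MEFs + nilotinib over MEFs + DMSO, as it called 0% of all probesets, and the smallest adjusted p was 0.396. An unadjusted p under 0.05 was found for 4 genes or 8.33%, beside 11.2% of all probesets. These were Ndc80, Kif20a, Ect2 and Smc4, all with positive differences. The median difference was 0.07, beside 0.0025 over all probesets, and 40 of the 48 were positive, beside 50.6% of all probesets. Arrays did not overlap in 8 genes with nilotinib higher, or 16.7% beside 13.6% of all probesets, and in 1 gene with nilotinib lower, or 2.08% beside 7.05%. That gene is Cenpa, which encodes the histone of the centromere. Both comparisons so far use the same MEFs + DMSO arrays.

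Setting MEFs + ALL + nilotinib against MEFs + nilotinib asks what the ALL cells add when the drug is in both. Limma called 0 of the 48 genes, beside 0.186% of all probesets, with a smallest adjusted p of 0.390 for Kif11. An unadjusted p under 0.05 was found for 2 genes or 4.17%, beside 9.27% of all probesets. The median difference was 0.01, beside -0.0067 over all probesets, and 29 of 48 were positive, beside 48.0% of all probesets. Arrays did not overlap in 5 genes with MEFs + ALL + nilotinib higher, or 10.4% beside 7.8%, and in 0 genes the other way, beside 6.62%. The 5 were Kif11, the kinase gene Melk, Cenpa, the cytokinesis kinesin Kif23 and Mki67, the gene of the proliferation antigen Ki-67.

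**Figure D2:**
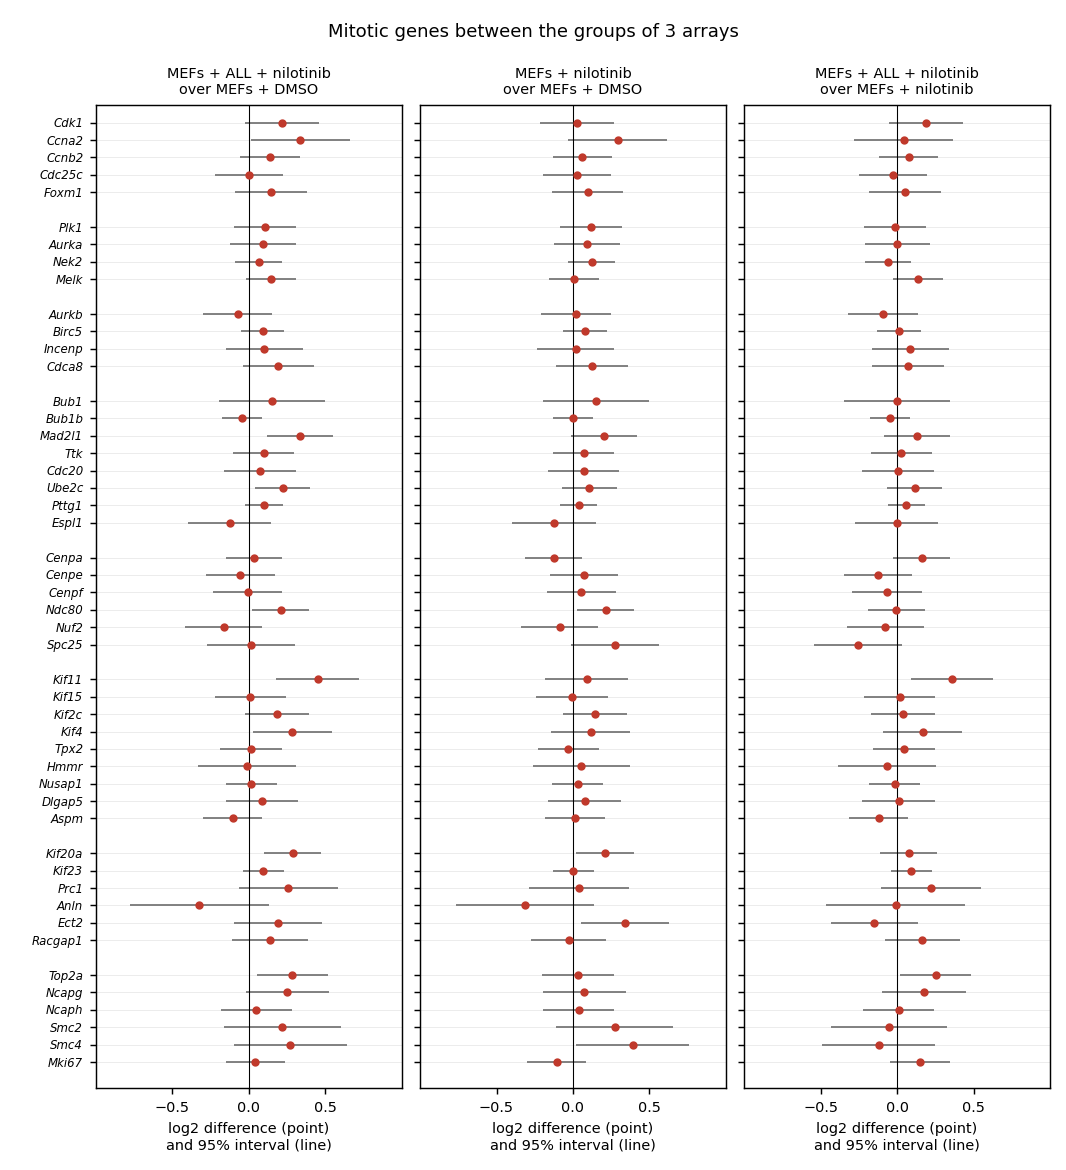
Log2 difference (points) and 95% interval from limma (lines) of each of the 48 mitotic genes, grouped by role from Cdk1 at the top to Mki67 at the bottom, in the 3 comparisons among groups of 3 arrays. No gene was called in any of the panels, and the highest upper end of an interval is 0.7621, for Smc4 in MEFs + nilotinib over MEFs + DMSO.

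Mitotic genes were higher on the MEFs + ALL + DMSO array, and broadly so. Limma called 46 of the 48 genes higher than in MEFs + DMSO, or 95.8%, beside 6.67% of all probesets. The median log2 difference of the measured signals was 2.06, beside -0.07 over all probesets, and 1.86 with the 16 dim genes at their bound. With those at their bound, the difference was over 1 (2-fold) in 42 genes, over 2 (4-fold) in 20 and over 3 (8-fold) in 9. It ran from 0.04 for Pttg1 to 3.71 for Top2a among the 32 genes that were not dim, and from at least 0.20 for Aspm to at least 3.57 for Kif11 among the dim ones. In 47 of the 48 genes this array lay above all 9 others, which 15.7% of all probesets did, and in 43 it did so by over 1, which 1.59% did. With 1 array in the group the test rests on a spread borrowed from the other dishes. The B lineage and leukocyte transcripts given above were on this same array, and their part in the mitotic signal was not tested.

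The same array enters 2 further comparisons, whose values are therefore not separate evidence. MEFs + ALL + nilotinib over MEFs + ALL + DMSO had 46 of 48 genes called lower, beside 3.76% of all probesets, with a median of -1.98. The interaction, which asks whether the difference with ALL cells depends on the drug, was negative and called for 46 of 48 genes, beside 3.55% of all probesets, with a median of -2.00. In each of the 3 comparisons the 2 genes not called were Pttg1 and Anln.

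**Figure D3:**
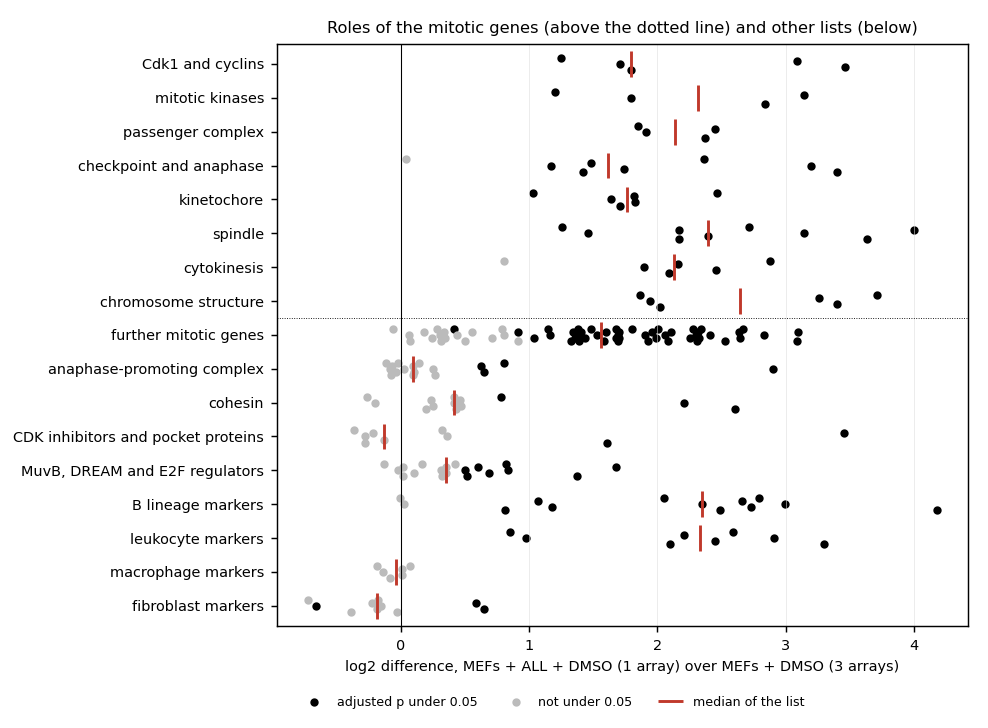
Log2 difference (x axis) of every gene in the 8 roles of the mitotic genes and in 9 other lists, MEFs + ALL + DMSO (1 array) over MEFs + DMSO (3 arrays), with black points for an adjusted p under 0.05 and red bars for list medians. Differences are those of the measured signals, dim genes included, and medians of the mitotic roles lie between 1.61 and 2.64, those of B lineage and leukocyte markers at 2.34 and 2.33, and those of macrophage and fibroblast markers at -0.03 and -0.18.

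Cdk1 and its cyclins start mitosis. Cdk1, the kinase itself, had signals of 8.98, 8.56 and 8.67 in MEFs + ALL + nilotinib, 10.23 in MEFs + ALL + DMSO, 8.50, 8.65 and 8.49 in MEFs + nilotinib, and 8.56, 8.50 and 8.51 in MEFs + DMSO. Ccna2, which encodes cyclin A2, had 7.24, 7.12 and 7.10 in MEFs + ALL + nilotinib, 10.27 in MEFs + ALL + DMSO, 6.90, 7.21 and 7.22 in MEFs + nilotinib, and 7.12, 6.72 and 6.61 in MEFs + DMSO. Both were high on the MEFs + ALL + DMSO array alone, and the other groups overlapped for Ccna2. In MEFs + ALL + DMSO over MEFs + DMSO, Ccna2 was higher by 3.46 (SE 0.20, adjusted p = 1.50e-05 from limma), and Ccnb2, the gene of cyclin B2, by 3.09. Cdk1 was higher by 1.71, the dim Cdc25c, whose phosphatase activates Cdk1, by at least 1.06, and Foxm1, a transcription factor of G2 and mitosis, by 1.25. In MEFs + ALL + nilotinib over MEFs + DMSO these 5 genes differed by 0.00 to 0.34, with 95% intervals no higher than 0.66.

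The mitotic kinases Plk1, Aurka, Nek2 and Melk act at centrosomes and spindle poles or in proliferating cells at large. Plk1 had signals of 7.32, 7.30 and 7.53 in MEFs + ALL + nilotinib, 10.11 in MEFs + ALL + DMSO, 7.35, 7.34 and 7.51 in MEFs + nilotinib, and 7.37, 7.28 and 7.18 in MEFs + DMSO. Its 3 groups of 3 arrays overlapped, and the MEFs + ALL + DMSO array was higher than MEFs + DMSO by 2.83 (SE 0.12, adjusted p = 3.64e-06 from limma). Nek2, a kinase of centrosome separation, was higher there by 3.15, Aurka by 1.79 and Melk by 1.20. In MEFs + ALL + nilotinib over MEFs + DMSO the 4 genes differed by 0.06 to 0.15.

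The chromosomal passenger complex corrects faulty attachments and then moves to the midzone, and it consists of the kinase Aurkb with Birc5 (survivin), Incenp and Cdca8 (borealin). Aurkb had signals of 7.20, 7.39 and 6.99 in MEFs + ALL + nilotinib, 9.63 in MEFs + ALL + DMSO, 7.27, 7.25 and 7.34 in MEFs + nilotinib, and 7.20, 7.30 and 7.30 in MEFs + DMSO. All 4 subunits were called higher on the MEFs + ALL + DMSO array than in MEFs + DMSO, over the narrow range of 1.85 to 2.45, where Aurkb differed by 2.37 (SE 0.14, adjusted p = 1.73e-05 from limma). Among the groups of 3 arrays none of the 4 had an unadjusted p under 0.05.

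The spindle checkpoint holds the cell in metaphase until each chromosome is attached. Mad2l1, which encodes the checkpoint protein Mad2, had signals of 8.89, 8.59 and 8.70 in MEFs + ALL + nilotinib, 10.14 in MEFs + ALL + DMSO, 8.59, 8.73 and 8.48 in MEFs + nilotinib, and 8.41, 8.41 and 8.35 in MEFs + DMSO. All 6 arrays with nilotinib lay above the 3 MEFs + DMSO arrays. The difference of MEFs + ALL + nilotinib over MEFs + DMSO was 0.33 (SE 0.09, unadjusted p = 0.00695, adjusted p = 0.154 from limma), and with array weights in the fit, an alternative setting, the adjusted p was 0.0480. That of MEFs + nilotinib over MEFs + DMSO was 0.21 with an adjusted p of 0.462. On the MEFs + ALL + DMSO array, 7 of the 8 genes of the checkpoint and of anaphase were called higher than in MEFs + DMSO. The checkpoint kinases Bub1, Bub1b and Ttk, all dim in MEFs + DMSO, were higher by at least 2.78, 3.13 and 1.505, and Mad2l1 by 1.74. Cdc20, which switches on the anaphase-promoting complex, and Ube2c, its ubiquitin-conjugating enzyme, differed by 1.48 and 1.17, and Espl1, whose protease separase cuts cohesin, by 1.42.

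Pttg1 encodes securin, the inhibitor of separase, and was the exception. Its signals were 8.91, 8.98 and 8.98 in MEFs + ALL + nilotinib, 8.90 in MEFs + ALL + DMSO, 8.91, 8.88 and 8.89 in MEFs + nilotinib, and 8.84, 8.86 and 8.87 in MEFs + DMSO. The 10 arrays lay within 0.14 of each other, and the difference of MEFs + ALL + DMSO over MEFs + DMSO was 0.04 (SE 0.08, adjusted p = 0.748 from limma).

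The kinetochore is the protein plate on the centromere that grips microtubules. All 6 of its genes were called higher on the MEFs + ALL + DMSO array than in MEFs + DMSO. Spc25 was higher by 1.03 (SE 0.18, adjusted p = 0.00880 from limma) and Cenpa by 1.71, while the dim genes Cenpe, Ndc80, Nuf2 and Cenpf were higher by at least 1.39, 1.4999, 1.02 and 0.81. Cenpe encodes a motor protein that carries chromosomes to the metaphase plate. Spc25, which with Ndc80 and Nuf2 belongs to the Ndc80 complex, had signals of 7.64, 7.32 and 7.59 in MEFs + ALL + nilotinib, 8.53 in MEFs + ALL + DMSO, 7.81, 7.93 and 7.58 in MEFs + nilotinib, and 7.59, 7.59 and 7.32 in MEFs + DMSO. The MEFs + ALL + DMSO array was the highest for Spc25, and the other groups overlapped. In MEFs + ALL + nilotinib and in MEFs + nilotinib, the measured signals of Ndc80 differed from MEFs + DMSO by 0.21 each, with adjusted p of 0.266 and 0.404.

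Spindle motors and microtubule-binding proteins build the spindle and move chromosomes on it. Kif11, the kinesin that pushes spindle poles apart, had signals of 6.54, 6.48 and 6.15 in MEFs + ALL + nilotinib, 9.94 in MEFs + ALL + DMSO, 6.13, 6.07 and 5.88 in MEFs + nilotinib, and 6.06, 5.90 and 5.86 in MEFs + DMSO. All arrays of MEFs + nilotinib and MEFs + DMSO lay under the background guide for Kif11, and the MEFs + ALL + DMSO array was at least 11.9-fold higher than MEFs + DMSO, or by at least 3.57 on the log2 scale (adjusted p = 2.87e-06 from limma). The 3 arrays of MEFs + ALL + nilotinib also lay above all arrays of MEFs + nilotinib and MEFs + DMSO. Array 3, at 6.15, lay under its own guide of 6.23 and just above the 6.13 of array 1 of MEFs + nilotinib. The differences of the measured signals over these groups were 0.36 (SE 0.12, adjusted p = 0.390 from limma) and 0.45 (SE 0.12, adjusted p = 0.137), and were not called. Kif15, a kinesin that works beside Kif11, had 5.86, 5.92 and 5.62 in MEFs + ALL + nilotinib, 9.42 in MEFs + ALL + DMSO, 5.78, 5.87 and 5.70 in MEFs + nilotinib, and 5.91, 5.66 and 5.80 in MEFs + DMSO. On the MEFs + ALL + DMSO array Kif15 was higher than MEFs + DMSO by at least 3.05, and on the other 9 arrays it lay under the guide.

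Tpx2, which activates Aurka on the spindle, had signals of 7.91, 7.80 and 7.93 in MEFs + ALL + nilotinib, 9.12 in MEFs + ALL + DMSO, 7.99, 7.81 and 7.71 in MEFs + nilotinib, and 7.98, 7.81 and 7.81 in MEFs + DMSO. Its groups of 3 arrays overlapped, and on the MEFs + ALL + DMSO array it was higher by 1.26. All 9 spindle genes were called higher on that array than in MEFs + DMSO. Besides those named these were the microtubule-depolymerizing kinesin Kif2c (at least 2.49), the chromosome kinesin Kif4 (at least 0.94), the spindle proteins Dlgap5 (3.14), Nusap1 (at least 1.37) and Hmmr (at least 0.65), and Aspm (at least 0.20), whose protein holds spindle poles.

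Cytokinesis genes build the midzone and the contractile ring. Ect2, whose product activates RhoA at the cell equator, had signals of 7.32, 6.98 and 7.24 in MEFs + ALL + nilotinib, 9.87 in MEFs + ALL + DMSO, 7.40, 7.45 and 7.13 in MEFs + nilotinib, and 7.05, 7.09 and 6.82 in MEFs + DMSO. Racgap1, a part of the centralspindlin complex that recruits Ect2, had 7.53, 7.46 and 7.21 in MEFs + ALL + nilotinib, 9.42 in MEFs + ALL + DMSO, 7.30, 7.28 and 7.13 in MEFs + nilotinib, and 7.42, 7.21 and 7.15 in MEFs + DMSO. Both were high on the MEFs + ALL + DMSO array, by 2.88 (SE 0.18, adjusted p = 2.06e-05) and 2.16 (SE 0.15, adjusted p = 5.00e-05) over MEFs + DMSO by limma. Kif20a, a kinesin of the midzone, had 6.88, 6.83 and 6.87 in MEFs + ALL + nilotinib, 8.47 in MEFs + ALL + DMSO, 6.65, 6.93 and 6.78 in MEFs + nilotinib, and 6.52, 6.68 and 6.53 in MEFs + DMSO. MEFs + ALL + nilotinib did not overlap MEFs + DMSO for Kif20a, and the difference of 0.29 had an unadjusted p of 0.00771 and an adjusted p of 0.161 from limma. Kif23 and Prc1, which bundle midzone microtubules, were higher by 2.46 and 2.09 on the MEFs + ALL + DMSO array.

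Anln encodes anillin, the scaffold of the contractile ring, and its dishes differed most. Its signals were 6.35, 6.14 and 6.39 in MEFs + ALL + nilotinib, 7.42 in MEFs + ALL + DMSO, 6.83, 5.98 and 6.09 in MEFs + nilotinib, and 6.62, 6.63 and 6.60 in MEFs + DMSO. Its span of 0.85 over the 9 arrays was the widest of the 48 genes, and the MEFs + ALL + DMSO array lay above all of them. The difference over MEFs + DMSO was 0.81 (SE 0.28, adjusted p = 0.105 from limma). In MEFs + ALL + nilotinib it differed from MEFs + DMSO by -0.32, the lowest value of the 48 genes, with an adjusted p of 0.461.

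Chromosome structure genes condense and untangle DNA, and 6 of 6 were called higher on the MEFs + ALL + DMSO array than in MEFs + DMSO. Top2a, whose enzyme untangles sister DNA, had signals of 7.13, 6.90 and 7.01 in MEFs + ALL + nilotinib, 10.44 in MEFs + ALL + DMSO, 6.65, 6.97 and 6.66 in MEFs + nilotinib, and 6.79, 6.70 and 6.69 in MEFs + DMSO. Top2a differed by 3.71 or 13.1-fold on the MEFs + ALL + DMSO array (SE 0.14, adjusted p = 2.13e-06 from limma) and by 0.29 in MEFs + ALL + nilotinib (adjusted p = 0.229), both over MEFs + DMSO. A second Top2a probeset was far dimmer, with a mean signal of 3.14 over the 10 arrays, under the background guide, so no difference is given for it.

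Ncapg, a condensin subunit, had signals of 6.20, 6.06 and 6.06 in MEFs + ALL + nilotinib, 9.26 in MEFs + ALL + DMSO, 5.64, 6.10 and 6.04 in MEFs + nilotinib, and 5.76, 5.92 and 5.88 in MEFs + DMSO. Smc4, which belongs to the core of condensin, had 8.54, 8.12 and 8.55 in MEFs + ALL + nilotinib, 10.00 in MEFs + ALL + DMSO, 8.43, 8.73 and 8.41 in MEFs + nilotinib, and 8.35, 8.17 and 7.88 in MEFs + DMSO. The MEFs + ALL + DMSO array was the highest for both, by at least 2.88 for the dim Ncapg and by 1.87 for Smc4 over MEFs + DMSO. The 3 arrays of MEFs + nilotinib lay above those of MEFs + DMSO for Smc4 (difference 0.39, adjusted p = 0.428 from limma), while those of MEFs + ALL + nilotinib overlapped them. Smc2, the other core subunit, differed by 1.95 and Ncaph, a further subunit, by 2.02 on the MEFs + ALL + DMSO array. Mki67 differed by 3.26 there and by 0.04 in MEFs + ALL + nilotinib.

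Of 64 measured further mitotic genes, such as the kinetochore gene Knl1 and the spindle gene Ska3, 47 were called higher on the MEFs + ALL + DMSO array than in MEFs + DMSO and 0 lower, with a median difference of 1.56 in the measured signals. Knl1 and Ska3, dim in MEFs + DMSO, were higher by at least 2.37 and 2.81. Of the further mitotic genes 73.4% were thus called higher, beside 6.67% of all probesets. Lists of machinery that is also used outside mitosis had smaller shares called higher, 23.5% for the anaphase-promoting complex and 23.1% for cohesin, and 0% lower. Of 17 genes of the anaphase-promoting complex and its partners 4 were called higher, with a median of 0.10. These were its inhibitor Fbxo5 (Emi1) at 2.90, its enzyme Ube2s at 0.80, its activator Fzr1 at 0.65 and the subunit Anapc15 at 0.62. Fbxo5 lay under the guide on 2 of the 3 MEFs + DMSO arrays. Of 13 cohesin genes 3 were called higher, with a median of 0.42: Esco2 and Cdca5, which fasten cohesin in S phase, at no less than 1.56 (Esco2 is dim) and 2.21, and Rad21, a subunit of the ring, at 0.79.

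Regulators that repress or activate mitotic genes were mixed. On the MEFs + ALL + DMSO array 22.2% of the CDK inhibitors and pocket proteins were called higher than in MEFs + DMSO. Of the MuvB, DREAM and E2F genes 42.1% were, beside 6.67% of all probesets, and 0% of either list was called lower. Of 9 CDK inhibitors and pocket proteins 2 were called higher, with a median of -0.13. Cdkn2c, an inhibitor of Cdk4 and Cdk6, had a signal of 10.07 on the MEFs + ALL + DMSO array and 6.57 to 6.80 on the others, and Rbl1, a pocket protein, differed by 1.61 over MEFs + DMSO. Cdkn2a, a gene whose products rise in senescent cells, and Cdkn1b, an inhibitor of Cdk2, differed by -0.36 and 0.32 in the same comparison, with adjusted p of 0.0532 and 0.0875 from limma. Of 19 MuvB, DREAM and E2F genes 8 were called higher, with a median of 0.36. The MuvB subunit Lin9 (at least 1.23) and the repressor E2f8 (at least 0.76) were dim in MEFs + DMSO, and Mybl2, the gene of B-Myb, which joins MuvB to activate mitotic genes, differed by 0.83. In the 3 comparisons among groups of 3 arrays limma called 0 genes of these 5 lists, with smallest adjusted p of 0.0804 (Ska3) in MEFs + ALL + nilotinib over MEFs + DMSO, 0.338 in MEFs + nilotinib over MEFs + DMSO and 0.247 in MEFs + ALL + nilotinib over MEFs + nilotinib. The shares called over all probesets were 0.627%, 0% and 0.186% in the same order.

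**Figure D4:**
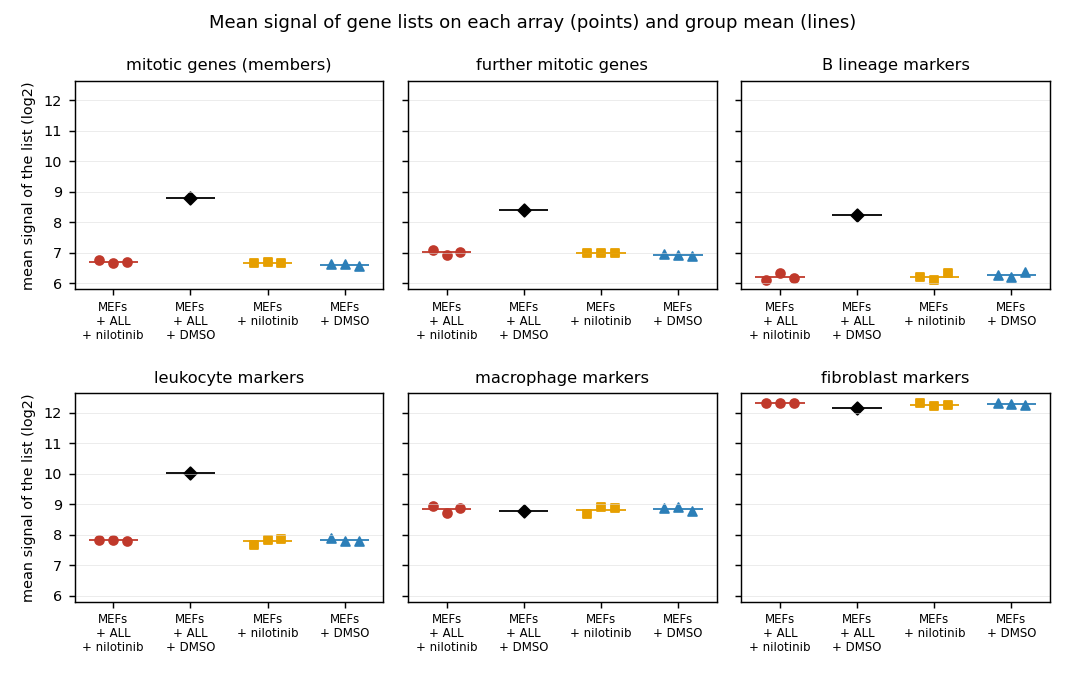
Mean signal (log2, y axis) of 6 gene lists on each array (points) with the group means (lines), for MEFs + ALL + nilotinib, MEFs + ALL + DMSO, MEFs + nilotinib and MEFs + DMSO from left to right. On the MEFs + ALL + DMSO array the mitotic, further mitotic, B lineage and leukocyte means are 8.81, 8.41, 8.23 and 10.0, above the 9 other arrays, while the macrophage and fibroblast means are 8.79 and 12.1.

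Promoters are shown because the CHR and the CCAAT box, the site of the factor NF-Y, are known elements of this gene class. Whether these elements bear on the signals measured here was not tested. RefSeq (GRCm38.p6) promoters of 300 bases, from 250 before to 50 after each start, were found for 39 of the 48 measured genes. The CHR was searched as TTTGAA and the CCAAT box as CCAAT, each on both strands, and matches of the pair can share no more than their outermost base. The 39 were counted by gene, with a match in any promoter of the gene, and Ect2 and Prc1 had 2 promoters each. All promoters were counted singly, so the 2 shares are not of quite the same unit. TTTGAA was in a promoter of 29 of the 39 genes (74.36%) and in 17.89% of all 32851 promoters of this length. Within 50 bases of the start it was in 27 (69.23%) and in 4.94% of all. CCAAT was in 28 (71.79%) and in 37.41% of all, and at 2 or more places in 18 (46.15%) and in 11.7% of all. Both were in 25 (64.1%) and in 6.95% of all. TTTAAA, a less common form of the element, was in 9 (23.08%) and in 13.16% of all.

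The 6 stretches below run 5′ to 3′ along the gene's strand, from 100 bases before to 50 after the start, in GRCm38.p6 coordinates, with TTTGAA and CCAAT matches of either strand in capitals. They are those of Kif11 and Top2a, which head the dim and the other genes by difference on the MEFs + ALL + DMSO array, of Cdk1 and Ccnb2 as the drivers of mitosis, and of the 2 genes that were not called.
Kif11 (chr19:37376282-37376431, plus strand): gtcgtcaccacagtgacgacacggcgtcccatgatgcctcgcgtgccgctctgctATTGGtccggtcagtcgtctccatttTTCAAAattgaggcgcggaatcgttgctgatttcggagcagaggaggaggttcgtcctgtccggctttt
Top2a (chr11:99024140-99024289, minus strand): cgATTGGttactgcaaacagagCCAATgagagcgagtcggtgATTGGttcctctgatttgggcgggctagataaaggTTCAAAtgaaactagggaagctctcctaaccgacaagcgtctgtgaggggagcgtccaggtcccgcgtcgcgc
Ccnb2 (chr9:70421505-70421654, minus strand): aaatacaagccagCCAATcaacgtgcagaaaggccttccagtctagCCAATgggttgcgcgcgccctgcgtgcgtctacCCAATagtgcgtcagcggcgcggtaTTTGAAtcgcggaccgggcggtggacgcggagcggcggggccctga
Cdk1 (chr10:69352863-69353012, minus strand): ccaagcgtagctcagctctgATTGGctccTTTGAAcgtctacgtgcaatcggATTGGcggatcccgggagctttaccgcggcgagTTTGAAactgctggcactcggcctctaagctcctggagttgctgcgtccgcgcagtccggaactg
Anln (chr9:22389157-22389306, minus strand): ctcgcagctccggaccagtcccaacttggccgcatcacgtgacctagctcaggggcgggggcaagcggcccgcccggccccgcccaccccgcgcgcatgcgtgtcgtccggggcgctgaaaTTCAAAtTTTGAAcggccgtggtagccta
Pttg1 (chr11:43425932-43426081, minus strand): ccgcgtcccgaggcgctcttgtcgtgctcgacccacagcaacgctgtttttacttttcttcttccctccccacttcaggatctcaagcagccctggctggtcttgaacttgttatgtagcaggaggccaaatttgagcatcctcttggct
Kif11, Top2a and Ccnb2 each hold 1 TTTGAA match in the stretch shown, Cdk1 holds 2, and CCAAT matches number 1, 3, 3 and 2 in these genes. Anln holds 2 TTTGAA matches and no CCAAT match in the stretch, and Pttg1 holds neither. A match is only a stretch of letters, and no binding was measured.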

How the data were processed

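The authors deposited 1 table of log2 signals of 35557 probesets on 10 Affymetrix Mouse Gene 1.0 ST arrays, 1 a dish. RMA normalization is stated in a figure legend of the study, and Partek is named in its methods and the processing notes; its settings are not given there. The methods print 1 version after Ingenuity, and leave unsaid whether it also holds for Partek. Gene names came from GEO's annotation of the array, and the 48 genes matched RefSeq by gene ID. R 4.3.3 with limma 3.58.1 (lmFit, eBayes) fitted 4 group means with a shared spread to all 10 arrays and all probesets, with no filter on dim signals, and p-values were adjusted by Benjamini-Hochberg. The fit was tested on simulated data. Alternatives were quantile normalization, centred arrays, array weights, trend and robust, dim probesets left out, the mean of a gene's probesets, only the groups compared, the replicate block, and each array left out.

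The mitotic genes, their roles and the other lists were chosen with earlier results of these data known. Values on every array are given for 17 genes: the 5 with the largest differences in MEFs + ALL + nilotinib, MEFs + ALL + DMSO or MEFs + nilotinib over MEFs + DMSO, and the brightest of each role. The rule also took every called gene, and was narrowed after 46 were called. The number of arrays limits the precision.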

Additional observations from a re-analysis of the deposited data

Results flagged for a closer look

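The difference with ALL cells was unlike under nilotinib and under DMSO for 46 of the 48 mitotic genes, by limma's test of the interaction with Benjamini-Hochberg adjustment over all probesets. Every such test rests on the 1 MEFs + ALL + DMSO array, which also carried B lineage and leukocyte transcripts, and their part in it was not tested. Among the genes with values on every array, the interaction on the log2 scale was -3.64 for Kif11, -3.62 for Kif15, -3.46 for Top2a, -3.42 for Ccna2 and -3.23 for Ncapg. It was -3.03 for Ect2, -2.85 for Plk1 and -2.46 for Aurkb. Smaller sizes were found for Racgap1 (-1.99), Smc4 (-1.99), Kif20a (-1.82), Mad2l1 (-1.62), Cdk1 (-1.52), Spc25 (-1.29) and Tpx2 (-1.21). Kif11, Kif15 and Ncapg lay under the background guide in MEFs + DMSO, so their sizes are those of the measured signals only. No single array was examined as an outlier within its group, since the groups hold 3 arrays or 1.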

How the results depend on the processing

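Counts of mitotic genes called were 0 in MEFs + nilotinib over MEFs + DMSO and in MEFs + ALL + nilotinib over MEFs + nilotinib under all alternatives, and 0 in MEFs + ALL + nilotinib over MEFs + DMSO, except with array weights, where 1 gene (Mad2l1) was called and 1263 probesets in all, against 223. In comparisons that use the MEFs + ALL + DMSO array, counts were 34 to 47, and the lowest came without dim probesets, a setting that keeps 36 of the genes. Median differences there moved: in MEFs + ALL + DMSO over MEFs + DMSO to 2.02 with quantile normalization, 1.93 without dim probesets and 1.86 with dim genes at their bound, a setting chosen after seeing the data, in MEFs + ALL + nilotinib over MEFs + ALL + DMSO to -1.91, to -1.92 with array weights and to -1.78, and in the interaction to -1.93 with array weights and -1.94 without dim probesets. Leaving out 1 dish at a time gave medians of 1.98 to 2.10, -2.05 to -1.89 and -2.08 to -1.92 in these, and of 0.0152 to 0.0665 in MEFs + ALL + nilotinib over MEFs + nilotinib, the highest without replicate 2 of MEFs + ALL + nilotinib. The cause of these shifts was not tested. Without the MEFs + ALL + DMSO array, the counts among groups of 3 were also 0.

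Differences near 0 that were not called changed sign. With array weights Kif15 came to -0.0343 over MEFs + DMSO and -0.0405 over MEFs + nilotinib in MEFs + ALL + nilotinib, and Plk1 to 0.0185 over MEFs + nilotinib. Anln over MEFs + nilotinib came to 0.1041 with array weights, 0.0199 with quantile normalization and 0.0042 with centred arrays. Leaving out 1 dish, the differences of MEFs + ALL + nilotinib over MEFs + DMSO ran from -0.1736 to 0.0304 for Aurkb, -0.0733 to 0.1136 for Spc25, -0.0578 to 0.0993 for Kif15 and -0.0135 to 0.0717 for Tpx2. Over MEFs + nilotinib they ran from -0.0642 to 0.0983 for Ccna2, -0.0874 to 0.0389 for Plk1, -0.1918 to 0.0122 for Aurkb, -0.0453 to 0.106 for Kif15, -0.0174 to 0.1209 for Tpx2, -0.1683 to 0.2565 for Anln and -0.1941 to 0.0219 for Smc4.

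Replicate numbers name dishes, and the methods name no pairing of dishes between groups. Deviations from the group means correlated from -0.29 to 0.24 for same-numbered dishes and from -0.26 to 0.39 for other dishes. Deviations from a mean of 3 arrays depend on each other, so these ranges do not settle whether dishes were paired. With the replicate number as a block, 0 genes were called in the 3 comparisons among groups of 3, with medians of 0.10, 0.07 and 0.01.

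The single MEFs + ALL + DMSO array, the dim signal of 12 to 19 of the genes on the 9 others, and 3 dishes a group limit these comparisons.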
